A study of Mus musculus with 10 samples.

Results

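Mpo, Elane, Prtn3, Ctsg and Ms4a3 are genes of the promyelocyte, the precursor at which a developing granulocyte fills its primary granules. They were chosen by symbol in the platform's table of probe sets and genes, and all 5 had 1 probe set each among 45037 on the array. All 5 probe sets passed the filter on dim signals, which kept 23805 probe sets and 11870 named genes. Their messages were measured in the spleens of 10 female BALB/c mice, with 1 Affymetrix array per mouse. Every mouse had been injected intraperitoneally with 100 µg of cartilage proteoglycan (PG) protein in 2 mg of the adjuvant dimethyldioctadecyl-ammonium bromide (DDA) on days 0, 21 and 42. This immunization induces an autoimmune arthritis in a share of the animals, so the non-arthritic mice were immunized too and no spleen came from an untreated mouse. The labels give 2 old arthritic mice, both aged 9 months, and 2 old non-arthritic mice, aged 7 and 5 months. The 2 young arthritic mice were aged 5 and 4 months, and the 4 young non-arthritic mice 3, 3, 2 and 1 months. The labels do not state whether these ages are from the first injection or from the day of sacrifice. The last injection was on day 42, so the mouse labelled 1 month was older than that when its spleen was taken. In the paper the age groups go by the age at the first injection. Ages below are the labelled ones. In the old and in the young mice, all arthritic animals were older than all non-arthritic ones, so arthritis and age cannot be told apart within an age group.

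Primary granules, also called azurophil granules, are formed only at the promyelocyte stage, and the genes of their proteins are switched off as the cell matures. A mature neutrophil therefore carries the proteins but little of the messages, and the messages in a tissue are used as markers of granulocyte production there. In mice the red pulp of the spleen keeps making blood cells in adult life, and this output can grow during inflammation. Mpo encodes myeloperoxidase, which makes hypochlorous acid from hydrogen peroxide and chloride. Elane (neutrophil elastase), Prtn3 (proteinase 3) and Ctsg (cathepsin G) encode serine proteases that are stored active in the granule. Ms4a3 encodes a small membrane protein of granulocyte and monocyte progenitors and is no granule enzyme.

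The bases before the start sites of the 5 genes are shown because the genes varied together in these spleens and because 4 of the 5 windows share a short motif. The sequences are the 250 bases before the RefSeq start of each gene, 5′ to 3′ on the gene's strand, in build GRCm38.p6, and capitals mark GAGGAA, a core of sites bound by the myeloid factor SPI1 (PU.1). The Mpo window is chr11:87793534-87793783 on the plus strand, that of Elane chr10:79886062-79886311 on the plus strand and that of Prtn3 chr10:79879417-79879666 on the plus strand. The Ctsg window is chr14:56102575-56102824 and the Ms4a3 window chr19:11640852-11641101, both on the minus strand.
Mpo: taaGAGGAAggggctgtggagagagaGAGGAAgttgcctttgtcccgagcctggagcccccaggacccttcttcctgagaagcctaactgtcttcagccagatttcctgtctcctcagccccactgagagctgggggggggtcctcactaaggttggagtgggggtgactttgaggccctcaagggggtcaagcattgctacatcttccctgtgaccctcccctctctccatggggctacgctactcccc
Elane: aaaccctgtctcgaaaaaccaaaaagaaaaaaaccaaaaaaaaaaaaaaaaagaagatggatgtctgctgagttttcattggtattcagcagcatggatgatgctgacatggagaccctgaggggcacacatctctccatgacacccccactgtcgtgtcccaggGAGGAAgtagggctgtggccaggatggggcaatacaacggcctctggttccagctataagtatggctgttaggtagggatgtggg
Prtn3: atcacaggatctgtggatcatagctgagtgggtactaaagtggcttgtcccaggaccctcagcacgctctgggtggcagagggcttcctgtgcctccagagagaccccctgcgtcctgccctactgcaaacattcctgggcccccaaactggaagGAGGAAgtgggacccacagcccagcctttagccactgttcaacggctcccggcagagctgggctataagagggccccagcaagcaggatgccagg
Ctsg: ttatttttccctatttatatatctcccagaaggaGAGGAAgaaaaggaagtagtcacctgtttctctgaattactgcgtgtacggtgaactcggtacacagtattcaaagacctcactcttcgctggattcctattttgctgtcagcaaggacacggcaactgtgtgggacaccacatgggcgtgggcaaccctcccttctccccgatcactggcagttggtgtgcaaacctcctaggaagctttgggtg
Ms4a3: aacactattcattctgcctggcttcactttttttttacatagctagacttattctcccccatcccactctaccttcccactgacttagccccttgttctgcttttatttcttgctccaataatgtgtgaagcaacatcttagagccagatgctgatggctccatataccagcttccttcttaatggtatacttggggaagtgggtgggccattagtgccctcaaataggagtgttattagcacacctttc

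GAGGAA, searched on both strands, stood in 4 of these windows and in 23.3% of 32851 RefSeq promoter windows of the same length. The Mpo window held 2 matches, 247 to 242 and 224 to 219 bases before the start. Elane held its match 85 to 80, Prtn3 95 to 90 and Ctsg 216 to 211 bases before the start, and these letters were not in the Ms4a3 window. The other motifs were searched in the same way. TAACNG, the core of MYB sites, was found for Mpo and Elane and in 19.8% of all windows. TGTGGT, the core of RUNX sites, was found for Ctsg and in 14.0% of all windows. TTGCNNAA, read in C/EBP sites, was in none of the 5 windows and in 9.56% of all. These matches describe the letters and are not measured binding sites.

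All 5 genes were read well above the middle of the array in every spleen, by 2.35 to 7.02 on the log2 scale above the array median. The highest value of all 5 was that of the 4-month-old young arthritic mouse, and the lowest 3 were those of both old non-arthritic mice and the 1-month-old non-arthritic mouse. Values are the authors' log2 signals after RMA (robust multi-array average), so that a difference of 1 is a doubling of the signal. The level of a message in a whole spleen piece is given here, in which fewer cells of a type and less RNA per cell cannot be told apart.

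The Mpo signal was 13.20 and 13.63 in the old arthritic mice, 12.07 and 12.22 in the old non-arthritic mice, 13.34 and 13.92 in the young arthritic mice, and 13.24, 13.31, 13.63 and 12.59 in the young non-arthritic mice aged 3, 3, 2 and 1 months. The old non-arthritic mice stood below all others, and the young arthritic mice overlapped with the young non-arthritic ones. The group means were 13.41 ± 0.31 (SD, n = 2) in old arthritic, 12.15 ± 0.11 (SD, n = 2) in old non-arthritic, 13.63 ± 0.41 (SD, n = 2) in young arthritic and 13.19 ± 0.44 (SD, n = 4) in young non-arthritic mice.

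Of the proteases, Elane read 12.77 and 13.11 in the old arthritic mice, 11.47 and 11.65 in the old non-arthritic mice, 12.74 and 13.63 in the young arthritic mice, and 12.88, 12.93, 13.23 and 12.04 in the young non-arthritic mice. Prtn3 read 12.76 and 13.12 in old arthritic, 11.45 and 11.44 in old non-arthritic, 12.63 and 13.45 in young arthritic, and 12.78, 12.96, 13.11 and 11.87 in young non-arthritic mice. Ctsg read 11.39 and 11.89 in old arthritic, 10.07 and 10.04 in old non-arthritic, 11.42 and 12.25 in young arthritic, and 11.45, 11.55, 11.51 and 10.41 in young non-arthritic mice. In each protease the old arthritic mice lay above the old non-arthritic mice without overlap, while both young groups overlapped. Ms4a3 read 10.58 and 11.14 in old arthritic, 9.30 and 9.33 in old non-arthritic, 10.37 and 11.59 in young arthritic, and 10.90, 10.76, 10.90 and 9.73 in young non-arthritic mice. The membrane protein gene thus stood in the same order as the granule enzymes at both ends, with the 4-month-old arthritic mouse highest and both old non-arthritic mice lowest.

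**Figure D1:**
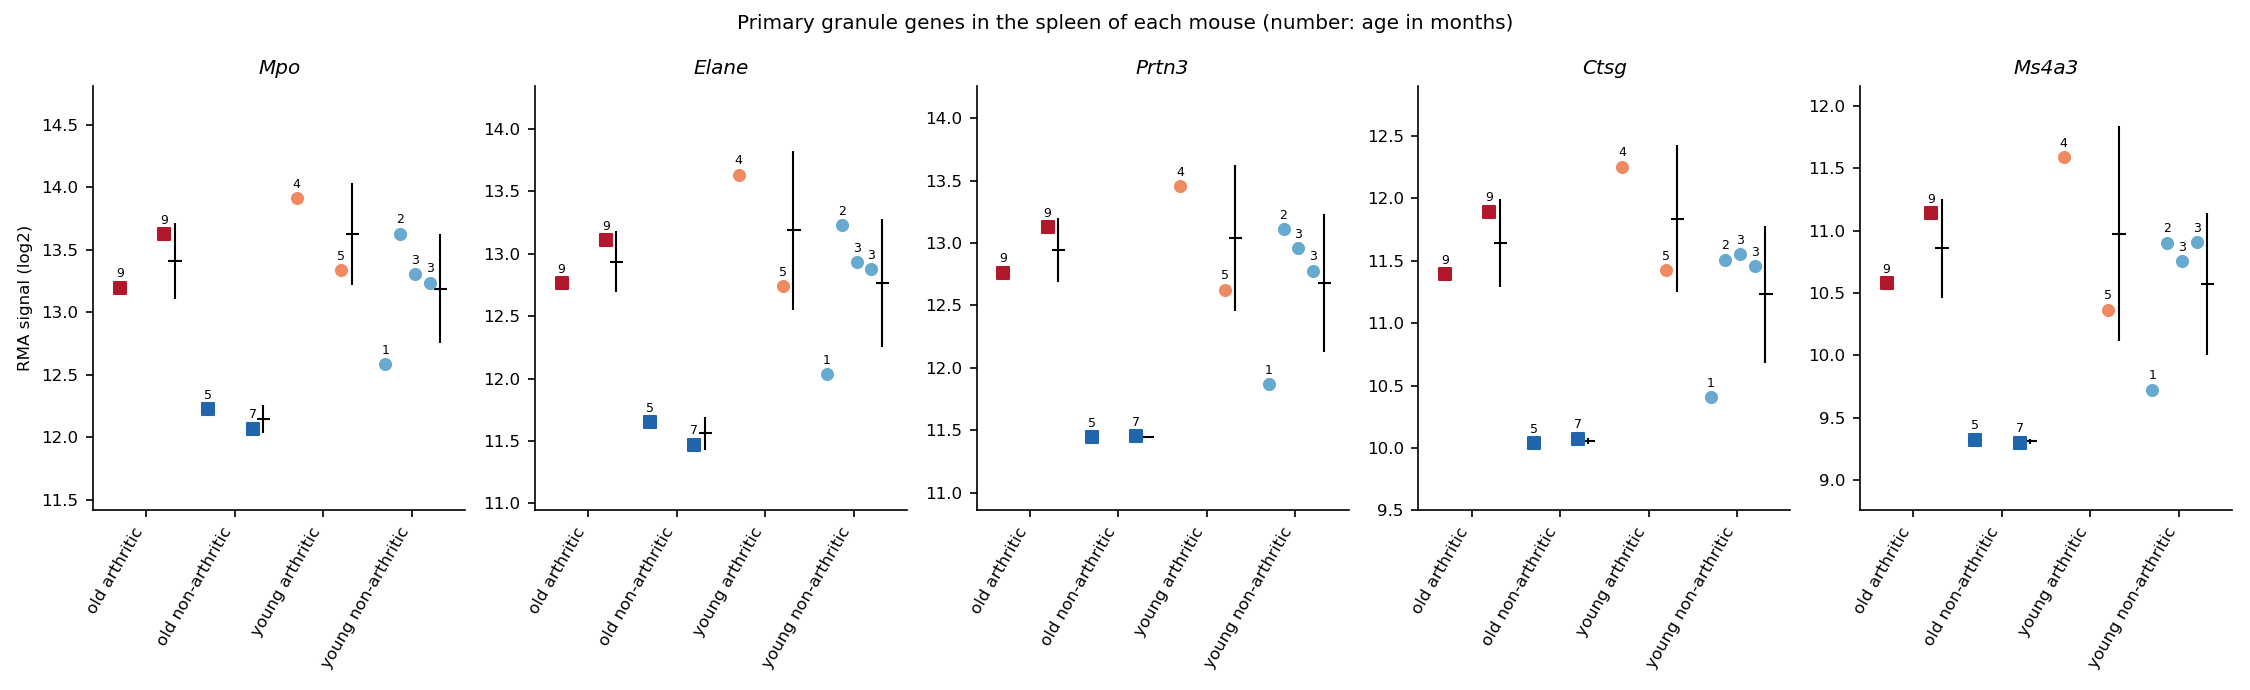
RMA signal (log2) of Mpo, Elane, Prtn3, Ctsg and Ms4a3 in each of 10 spleens, by group, with each mouse's age in months beside its point, the group mean as a horizontal line and 1 SD to either side as a vertical line. The 2 old non-arthritic mice are lowest in all 5 panels (Mpo 12.07 and 12.22), and the 1-month-old mouse (Mpo 12.59) is the next.

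Both old non-arthritic mice were the lowest 2 of the 10 in 5 of 5 genes, a pattern that 4.08% of the 23805 probe sets had. They lay below all young non-arthritic mice in 5 of 5 (7.77% of all probe sets), and the old arthritic mice lay above them in 5 of 5 (35.3%). All 4 arthritic mice lay above both old non-arthritic mice in 5 of 5 (27.4%), but no gene had both young arthritic mice above all young non-arthritic mice (25.6%). In each gene 3 of the 6 non-arthritic mice, those aged 2 and 3 months, were above the lowest arthritic mouse, so arthritic and non-arthritic mice as a whole overlapped. These counts were chosen after the values were seen and are descriptions.

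The 5 genes kept nearly the same proportions from spleen to spleen. Over the 10 mice Pearson's r of the 10 pairs of genes was 0.971 to 0.993, with permutation p-values of 1e-05 to 5e-05 (Benjamini-Hochberg adjusted over the 10 pairs 2.5e-05 to 5e-05), where 1e-05 is the smallest that 100000 permutations can give. Spearman's rho was 0.855 to 0.976, with permutation p-values of 1e-05 to 0.0028 and adjusted values of 5e-05 to 0.0028. The permutations moved mice freely across the groups, so these p-values also count group differences that the genes share. Without the 2 mice farthest from the median, r was 0.931 to 0.985, and among the deviations from the group means it was 0.929 to 0.985. The log2 ratio of 2 genes had an SD of 0.0860 (Elane and Prtn3) to 0.228 (Mpo and Ms4a3) over the mice, against an SD of 0.619 to 0.775 for each gene alone. All of these values come from the same 10 arrays and so share each array's normalization and each spleen piece.

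The first comparison asked how non-arthritic spleens of old and young mice differ. All 5 genes were lower in the 2 old mice, Mpo by a log2 difference of -1.04 (SE 0.27), Elane by -1.21 (SE 0.33), Prtn3 by -1.23 (SE 0.34), Ctsg by -1.17 (SE 0.34) and Ms4a3 by -1.26 (SE 0.40), or 2.06- to 2.39-fold. The median of the 5 was -1.21, beside -0.03 over the 11870 named genes. None passed limma's test after Benjamini-Hochberg adjustment over all probe sets (adjusted p = 0.997 for each), and neither did any of the 23805 (0%). At an unadjusted p under 0.05 all 5 were lower, as were 2.1% of all probe sets, and unadjusted p-values in limma ran from 0.00394 for Mpo to 0.0114 for Ms4a3. Between 11 and 29 probe sets were lower by a larger amount than each of the 5.

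The young non-arthritic group was not uniform. The 1-month-old mouse was below the mean of the 3 mice aged 2 and 3 months by 0.81 in Mpo (-0.81), by 0.97 in Elane (-0.97), 1.08 in Prtn3 (-1.08), 1.10 in Ctsg (-1.10) and 1.13 in Ms4a3 (-1.13), all on the log2 scale, where the SD among those 3 mice was 0.0492 to 0.209. It nevertheless stood 0.33 to 0.42 above the higher of the 2 old non-arthritic mice. Along the labelled ages the mean of the 5 genes, each set relative to its own mean over 10 mice, was -0.67 in the non-arthritic mouse of 1 month, 0.48 at 2 months, 0.26 and 0.31 at 3 months, -1.06 at 5 months and -1.12 at 7 months. In the non-arthritic mice the signal was thus low at both ends of the age range and high between. Without the 1-month-old mouse the differences between old and young were -1.25 (Mpo) to -1.54 (Ms4a3), with adjusted p-values in limma of 0.649 to 0.748.

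**Figure D2:**
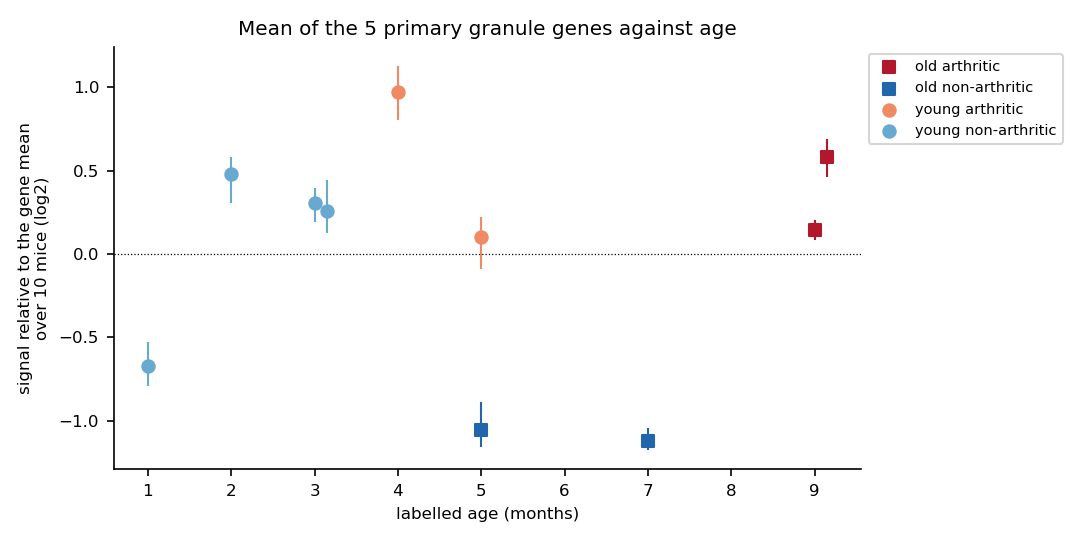
Mean of the 5 genes in each mouse, relative to each gene's mean over 10 mice (log2), against the labelled age in months; vertical lines span the lowest to the highest of the 5 genes, and mice of the same group and age are drawn slightly apart. Non-arthritic mice read -0.67 at 1 month, up to 0.48 at 2 and 3 months and -1.06 and -1.12 at 5 and 7 months, and the arthritic mice read 0.10 to 0.97.

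Arthritis was compared first in the old mice. All 5 genes were higher in the old arthritic spleens, Mpo by a log2 difference of 1.27 (SE 0.31), Elane by 1.38 (SE 0.38), Prtn3 by 1.50 (SE 0.39), Ctsg by 1.59 (SE 0.40) and Ms4a3 by 1.55 (SE 0.46), or 2.41- to 3.00-fold. The median of the 5 was 1.50, beside 0.07 over all named genes, and 9 to 27 probe sets were higher by more than each of them. None passed limma's test (adjusted p = 0.116 for Mpo to 0.143 for Ms4a3), and 0.0714% of all probe sets did. At an unadjusted p under 0.05 the 5 were higher, as were 13.6% of all probe sets. The array of the second old arthritic mouse stood apart from the rest on the first principal component, with a score of 52.6 where the next was 19.6, and without it the differences were 1.05 (Mpo) to 1.33 (Ctsg), with adjusted p-values of 0.445 to 0.520.

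In the young mice the same contrast was smaller. Mpo differed by 0.44 (SE 0.27), Elane by 0.42 (SE 0.33), Prtn3 by 0.36 (SE 0.34), Ctsg by 0.61 (SE 0.34) and Ms4a3 by 0.40 (SE 0.40) on the log2 scale, and all 95% intervals held 0. None passed limma's test (adjusted p = 0.369 to 0.606), in a comparison where 0.311% of all probe sets did, and none had an unadjusted p under 0.05, where 18.2% of all did. The difference rested on the 4-month-old arthritic mouse, for without it Mpo differed by 0.15 and Ctsg by 0.19, while Elane (-0.03), Prtn3 (-0.05) and Ms4a3 (-0.21) were lower in the remaining young arthritic mouse. It also rested on the 1-month-old mouse. Against the 3 non-arthritic mice of 2 and 3 months alone, the young arthritic mice were higher by 0.23 in Mpo, 0.17 in Elane, 0.09 in Prtn3, 0.33 in Ctsg and 0.12 in Ms4a3.

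Whether arthritis went with a larger difference in old than in young mice was tested in its own contrast. It was 0.83 (SE 0.42) in Mpo, 0.96 (SE 0.50) in Elane, 1.13 (SE 0.52) in Prtn3, 0.98 (SE 0.52) in Ctsg and 1.14 (SE 0.61) in Ms4a3, each higher in old mice. No gene passed limma's test (adjusted p = 1.00 for each; 0% of all probe sets), and the unadjusted p-values were 0.0554 to 0.0954, where 3.1% of all probe sets were under 0.05. All 5 of the 95% intervals held 0, and the widest, that of Ms4a3, ran from -0.23 to 2.52. Single mice moved this difference by over 1.5 times. Without the 5-month-old young arthritic mouse it was 0.51 (Elane) to 0.72 (Prtn3), and without the 4-month-old one 1.12 (Mpo) to 1.75 (Ms4a3), with unadjusted p-values in limma of 0.0155 to 0.0381. Without the 1-month-old mouse it was 1.03 (Mpo) to 1.42 (Ms4a3), with unadjusted p-values of 0.00350 (Prtn3) to 0.0165 (Ms4a3). The adjusted p-values stayed between 0.575 and 1.00 whichever mouse was left out.

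The ages of the groups allowed 2 further comparisons. Among mice aged 4 months or more, the 4 arthritic mice were higher than the 2 old non-arthritic mice by 1.37 in Mpo (SE 0.27), 1.50 in Elane (SE 0.33), 1.54 in Prtn3 (SE 0.34), 1.68 in Ctsg (SE 0.34) and 1.60 in Ms4a3 (SE 0.40), or 2.59- to 3.21-fold. Adjusted p-values in limma were 0.0605 to 0.0836, so none passed, in a comparison with 0.576% of all probe sets called. All 5 were higher at an unadjusted p under 0.05, as were 17.9% of all probe sets. Whether the 5 passed depended on the mouse left out, as did the calls over all probe sets. Over the omissions of 1 mouse the difference was 1.23 to 1.52 in Mpo and 1.30 to 1.91 in Ms4a3. Without the second old arthritic mouse the 5 genes had differences of 1.27 to 1.56. When arrays were weighted by their quality, 5 of 5 passed here and at equal age. The calls over all probe sets rose many-fold in both as well, so this is not read as a result about the 5 genes. This contrast, the one in old mice and the one between old and young non-arthritic mice all use the same 2 old non-arthritic spleens, so their results are not independent of each other.

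The second used arthritis and age in months in the same fit. At equal age the arthritic mice were higher by 1.11 in Mpo (SE 0.32), 1.19 in Elane (SE 0.38), 1.15 in Prtn3 (SE 0.41), 1.32 in Ctsg (SE 0.41) and 1.21 in Ms4a3 (SE 0.45). The median of the 5 was 1.19, beside 0.11 over all named genes. The adjusted p-values in limma were 0.0889 to 0.153, so none passed, while 2.26% of all probe sets did. At an unadjusted p under 0.05 all 5 were higher, as were 19.2% of all probe sets. The slope per month of age was -0.13 in Mpo, Prtn3 and Ctsg, -0.15 in Elane and -0.14 in Ms4a3, and none passed (adjusted p = 0.501 to 0.572; 0.0042% of all probe sets called), nor was any under an unadjusted p of 0.05, where 9.98% of all probe sets were. Without the 1-month-old mouse the slopes were -0.18 (Mpo) to -0.21 (Elane), all 5 with an unadjusted p under 0.05 (0.0125 to 0.0405; adjusted p in limma 0.191 to 0.265). Without the 7-month-old mouse they were -0.081 (Prtn3) to -0.10 (Elane), with adjusted p-values of 0.838 to 0.901. Without the second old arthritic mouse the differences at equal age were 1.05 (Mpo) to 1.26 (Ctsg), with adjusted p-values of 0.100 to 0.174. A straight line in age was assumed here, whereas the non-arthritic values did not run in 1 direction with age. Only at 5 months did both states occur at the same age, with 1 mouse each and no test. The arthritic mouse read 13.34 and the non-arthritic mouse 12.22 in Mpo, and the differences were 1.11 in Mpo, 1.09 in Elane, 1.19 in Prtn3, 1.38 in Ctsg and 1.04 in Ms4a3.

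**Figure D3:**
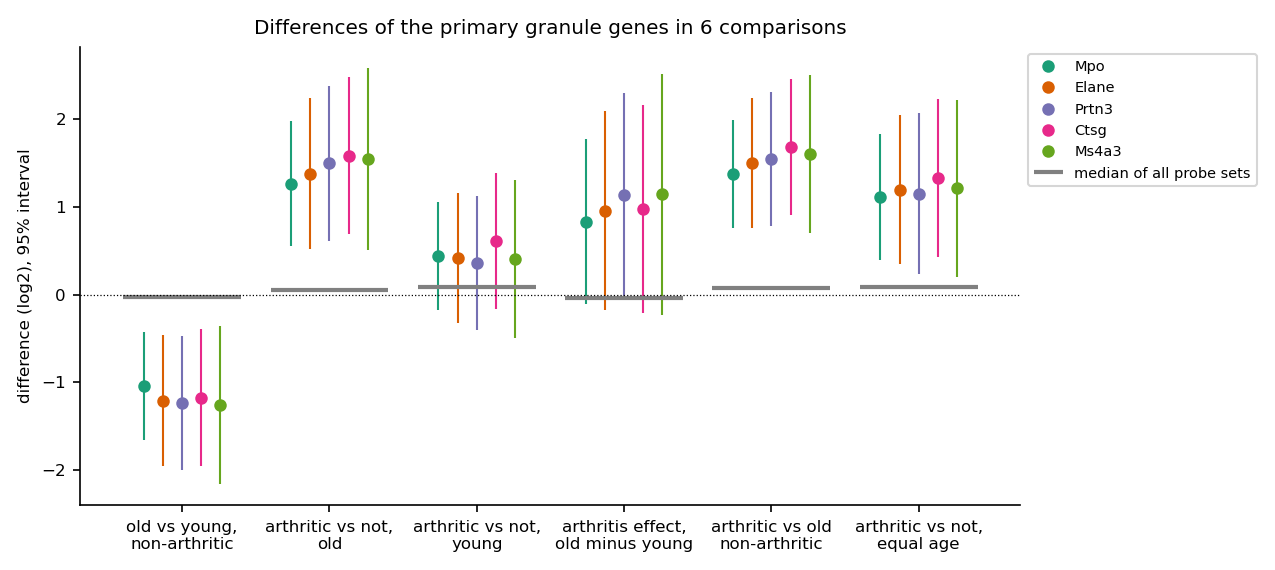
Log2 differences of the 5 genes in 6 comparisons, with 95% intervals from limma as vertical lines and the median over all probe sets as grey bars. The genes lie together in each comparison, from -1.04 to -1.26 between old and young non-arthritic mice and from 1.27 to 1.59 between arthritic and non-arthritic old mice.

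Counts of other genes at equal age are read beside all probe sets, of which 19.2% were higher at an unadjusted p under 0.05 and 2.26% passed after adjustment, and beside the median of 0.11 over all named genes. The genes that passed there depended on single mice. In all, 538 probe sets were called with all mice and 0 to 859 when 1 mouse was left out, with none called without the 7-month-old non-arthritic mouse.

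Among the other proteins of the granule, the messages were less uniform. Of 12 measured partners of the primary granule, 12 were higher at equal age in arthritic mice and 4 of them (beside 19.2% of all probe sets) at an unadjusted p under 0.05, but none passed limma's test and the median was 0.21, beside 0.11 over all named genes. Fcnb, the soluble lectin ficolin-B of the same developing cells, differed most like the 5 genes, by 1.23 (SE 0.43, adjusted p = 0.134), with a mean r of 0.969 with them over 10 mice. It read 9.14 and 9.35 in the old non-arthritic mice and 10.22 to 11.47 in the arthritic mice. The lysosomal genes Ctsd (0.40, SE 0.10), Cd68 (0.30, SE 0.09) and Lyz2, which encodes lysozyme (0.21, SE 0.07), differed less, and they are also expressed in macrophages, which are plentiful in the spleen.

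Of 8 inhibitors of granule and lysosomal proteases on the array, 7 were kept by the filter. All 7 were higher at equal age, 3 at an unadjusted p under 0.05, and 2 passed limma's test, where 2.26% of all probe sets did. Slpi, which encodes a secreted inhibitor of elastase and cathepsin G, was higher in arthritic mice by 0.89 (SE 0.15, adjusted p = 0.0250 in limma). It read 14.24 and 14.33 in old arthritic, 13.43 and 13.46 in old non-arthritic, 14.51 and 14.56 in young arthritic, and 13.80, 14.03, 14.40 and 14.17 in young non-arthritic mice. Stfa3, a stefin that inhibits cysteine proteases and not these serine proteases, was higher by 1.30 (SE 0.26, adjusted p = 0.0391). Its values ran from 5.36 to 7.83, beside array medians of 6.88 to 6.96. They were above the median only in the second old arthritic (7.83) and the second young arthritic mouse (7.00). The filter thus admitted Stfa3 through 2 arthritic mice alone, so its call is no support for a difference with arthritis. Serpinb1a, an intracellular inhibitor of elastase, proteinase 3 and cathepsin G, differed by 0.55 (SE 0.18, adjusted p = 0.123), and the median of the 7 was 0.23, beside 0.11 over all named genes. Slpi did not pass when either old non-arthritic or either young arthritic mouse was left out (passed in 6 of 10 omissions, differences 0.80 to 1.01, adjusted p up to 0.176). Stfa3 also did not without the second old arthritic mouse or replicates 2 or 3 of the young non-arthritic mice (aged 3 and 2 months) (passed in 3 of 10, differences 1.17 to 1.48, adjusted p up to 0.226). Both Slpi (0.96, adjusted p = 0.0417) and Stfa3 (1.58, adjusted p = 0.0423) also passed among mice of 4 months or more, where 0.576% of all probe sets did. There Slpi passed in 3 of 10 omissions, without the first old arthritic mouse or replicates 1 or 3 of the young non-arthritic mice, and Stfa3 in 1, without the first old arthritic mouse. In the other omissions with a test the differences were at least 0.94 (Slpi) and 1.43 (Stfa3). Without the second old arthritic or the second young arthritic mouse, Stfa3 did not pass the filter and had no test in either comparison.

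Of 19 measured regulators and receptors of granulocyte progenitors, 16 were higher at equal age, 9 of them at an unadjusted p under 0.05 (19.2% of all probe sets), and 1 passed (2.26% of all). That gene was Myb, a transcription factor of immature blood cells, by 0.47 (SE 0.10, adjusted p = 0.0439), and it read 10.69 and 10.76 in the old non-arthritic mice and 11.11 to 11.40 in the arthritic mice. Myb did not pass without either old non-arthritic, either young arthritic, the second old arthritic or the second young non-arthritic mouse (passed in 4 of 10 omissions, differences 0.44 to 0.54, adjusted p up to 0.238). The next by p were Cebpd (0.71, SE 0.18), Csf2ra, a chain of the GM-CSF receptor (0.32, SE 0.10), and Cebpb (0.37, SE 0.12), with adjusted p-values of 0.0681 to 0.112. Gfi1, a repressor needed for neutrophil development and named here after its values were seen, had the highest mean r of the list with the 5 genes, 0.924, and differed by 0.74 (SE 0.32, adjusted p = 0.201). Irf8, a factor of the monocyte branch likewise named afterwards, had the lowest, -0.55, and a difference of -0.07. The median of the 19 was 0.24, beside 0.11 over all named genes.

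The next stage of the granulocyte followed the 5 genes closely. Of 15 genes of the secondary granules, which form after the primary ones, 15 were higher at equal age and 15 at an unadjusted p under 0.05 (19.2% of all probe sets), with a median of 1.23, beside 0.11 over all named genes, but none passed limma's test there. Those with the smallest p were the collagenase Mmp8 (1.56, SE 0.39), the siderophore-binding Lcn2 (1.57, SE 0.39), Anxa1 (0.97, SE 0.24) and lactoferrin, Ltf (1.36, SE 0.37), with adjusted p-values of 0.0622 to 0.0787. Among mice of 4 months or more Lcn2 passed, with a difference of 1.90 (SE 0.33, adjusted p = 0.0469; 0.576% of all probe sets passed). It passed in 1 of 10 omissions, without the first old arthritic mouse, and in the other omissions the adjusted p reached 0.367, with all differences 1.68 to 2.11. Between old and young non-arthritic mice the same 15 genes had a median of -1.13, beside -0.03 over all named genes, and 13 were lower at an unadjusted p under 0.05, as were 2.1% of all probe sets. Of 14 genes of mature neutrophils, 13 were higher at equal age and 10 at an unadjusted p under 0.05 (19.2% of all), with a median of 0.44. Among these, Lrg1 differed by 0.71 (SE 0.17), the histone deiminase Padi4 by 1.08 (SE 0.30), Acod1 by 0.41 (SE 0.11) and the formyl peptide receptor Fpr2 by 0.88 (SE 0.25), and none passed (adjusted p = 0.0570 to 0.0823). The chemokine receptor gene Cxcr2, named after its values were seen, was the 1 lower gene of the 14 (-0.15). Its mean r with the 5 genes was 0.120.

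The genes nearest in structure to the 5 did not all share their pattern. Of 17 granule serine proteases of other cells on the array, 9 were kept by the filter. Among these, Mcpt8, the protease of basophils, was most like the 5 genes (mean r 0.907) and differed by 1.28 at equal age (SE 0.39, adjusted p = 0.0993). Tpsab1 (1.11, SE 0.46), Mcpt4 (0.97, SE 0.42) and Tpsb2 (0.79, SE 0.35), proteases of mast cells, had a mean r of 0.21 to 0.36, and none of the 9 passed limma's test. Granzyme A of cytotoxic lymphocytes, Gzma, differed by -0.42 (SE 0.29) at equal age, with a mean r of -0.25; it was named after its values were seen. Of 5 related heme peroxidases on the array, 2 were kept by the filter. Epx of eosinophils differed by 0.80 (SE 0.50, mean r 0.811) and Pxdn, a peroxidase of the extracellular matrix, by 0.17 (SE 0.09, mean r 0.386). Of 12 other Ms4a genes on the array, 11 were kept by the filter. Among these, Ms4a6d (0.76, SE 0.10, adjusted p = 0.0146) and Ms4a7 (0.56, SE 0.12, adjusted p = 0.0498), both known from macrophages and monocytes, passed limma's test at equal age, as did 2.26% of all probe sets. Ms4a6d did not pass without either old non-arthritic or either young arthritic mouse (passed in 6 of 10 omissions, differences 0.74 to 0.78, adjusted p up to 0.125). Ms4a7 also did not without the second old arthritic or the first or second young non-arthritic mouse (passed in 3 of 10, differences 0.45 to 0.65, adjusted p up to 0.223). Ms4a8a (-0.37) and Ms4a6c (0.24) did not pass, and the median of the 11 was 0.01, beside 0.11 over all named genes.

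The 10 genes most like the 5, by mean Pearson r over the 10 mice among 20747 filtered probe sets with 1 symbol, were Wfdc21 (0.987), Pglyrp1 (0.986), S100a9 (0.985), Prom1 (0.979), Ngp (0.979), Trem3 (0.976), AA467197 (0.976), Lcn2 (0.975), Camp (0.974) and Cd177 (0.974). Ngp, Lcn2, Camp, Pglyrp1 and Cd177 belong to the secondary granule list and Wfdc21, S100a9 and Trem3 to the mature neutrophil list, while Prom1 and AA467197 stood in no list. The membrane glycoprotein gene Prom1 read 6.84 and 7.08 in old non-arthritic, 8.21 and 8.92 in old arthritic, 8.19 and 9.32 in young arthritic, and 8.18, 8.23, 8.58 and 7.30 in young non-arthritic mice. Its lowest 3 and its highest mouse were thus those of the 5 genes. In all, 93 of the 20747 probe sets had a mean r above 0.9. By Spearman's rho 5 of the 10 genes remained among the 10 most alike, and by deviations from the group means 1 did, Wfdc21.

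**Figure D4:**
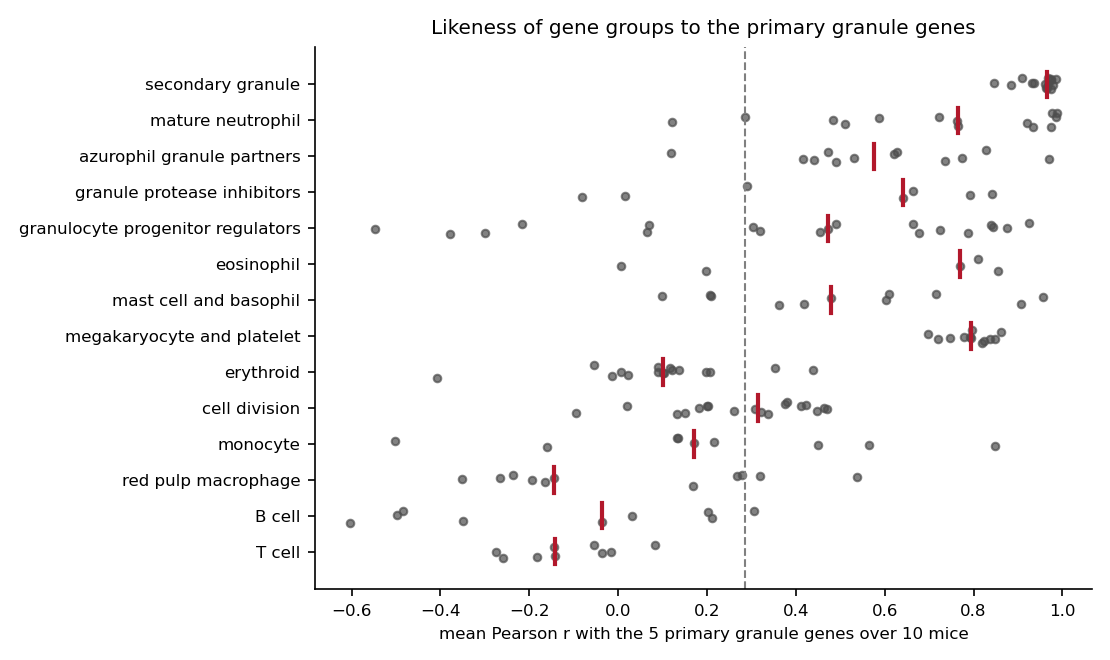
Mean Pearson r over 10 mice between each gene of a list and the 5 primary granule genes (points), with the median of each list as a red bar and the median of all named genes (0.286) as a dashed line. Secondary granule genes stand at 0.846 to 0.986, and the medians of the erythroid (0.102), B cell (-0.0355) and T cell (-0.143) lists lie at or below that of all genes.

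Genes of other cell types moved with the 5 in part. All 12 megakaryocyte and platelet genes were higher at equal age and at an unadjusted p under 0.05, as were 19.2% of all probe sets, with a median of 0.68 (0.11 over all named genes) and a median r of 0.795 with the 5 genes, and 1 of them, the platelet glycoprotein gene Gp5, passed (0.88, SE 0.18, adjusted p = 0.0392; 2.26% of all probe sets passed). The log2 of their summed signal was 15.44 and 15.53 in old arthritic, 15.16 and 15.19 in old non-arthritic, 15.82 and 16.10 in young arthritic and 15.29 to 15.79 in young non-arthritic mice. All 11 mast cell and basophil genes were higher, 9 at an unadjusted p under 0.05 (19.2% of all), with a median of 0.79, and Fcer1a (0.91, SE 0.15, adjusted p = 0.0237) and Cpa3 (0.95, SE 0.21, adjusted p = 0.0485) passed. All of Gp5, Fcer1a and Cpa3 lost the call without either old non-arthritic or either young arthritic mouse, Gp5 also without young non-arthritic replicate 2 and Cpa3 also without each of replicates 1, 2 and 3 of that group. Over the 10 omissions the differences were 0.67 to 0.98 in Gp5 (adjusted p up to 0.254), 0.86 to 0.96 in Fcer1a (up to 0.182) and 0.89 to 1.05 in Cpa3 (up to 0.254). The summed signal of the mast cell and basophil genes was 11.56 and 12.28 in old arthritic, 11.28 and 11.73 in old non-arthritic, 12.19 and 12.64 in young arthritic and 11.79 to 12.47 in young non-arthritic mice, and it was 12.47 in the 1-month-old mouse, in which the 5 genes were low. Of 5 eosinophil genes 4 were higher and none passed, with a median of 0.50, and their summed signal was 11.75 and 12.12 in old non-arthritic, 12.37 and 12.40 in old arthritic, 12.62 and 13.51 in young arthritic and 11.71 to 13.33 in young non-arthritic mice. Between old and young non-arthritic mice 0 of the 12 megakaryocyte and platelet genes were higher, with a median of -0.37 (-0.03 over all named genes). Of the mast cell and basophil genes 0 of 11 were higher (median -0.48), and of the eosinophil genes 1 of 5 (median -0.65). At an unadjusted p under 0.05 in limma 7, 5 and 0 of these genes were lower, as were 2.1% of all probe sets, and none passed. The part of these cells in the differences of the 5 genes was not tested.

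Red cell precursors, which the red pulp also makes, and dividing cells had list medians with the sign of the 5 genes between arthritic and non-arthritic mice and the opposite sign between old and young non-arthritic mice. Of 16 erythroid genes 16 were higher in old arthritic than in old non-arthritic mice, with a median of 0.30 beside the 1.50 of the 5 genes, and 2 had an unadjusted p under 0.05 (13.6% of all probe sets higher). In young mice 15 of the 16 were higher in the arthritic group, with a median of 0.42 beside 0.42 in the 5 genes, and 2 had an unadjusted p under 0.05 (18.2% of all, either direction). At equal age their median was 0.19, and the median r with the 5 genes was 0.102. Between old and young non-arthritic mice their median was 0.40, where that of the 5 genes was -1.21. Relative to each gene's mean over 10 mice, the erythroid list averaged -0.83 in young non-arthritic replicate 2, aged 3 months. It averaged -0.30 to 0.05 in the other young non-arthritic mice and 0.12 and 0.05 in the old non-arthritic mice. The differences from the young non-arthritic group thus leaned in part on 1 mouse. Of 18 cell division genes 16 were higher in old arthritic mice, with a median of 0.41 beside 0.07 over all named genes. Of these genes 6 had an unadjusted p under 0.05 (13.6% of all probe sets higher). In young arthritic mice 18 were higher, with a median of 0.41 beside 0.11 over all named genes. There 9 had an unadjusted p under 0.05 (18.2% of all, either direction). Their medians were 0.25 at equal age and 0.24 between old and young non-arthritic mice. The cell division list averaged -0.60 in young non-arthritic replicate 2 and -0.41 in the 1-month-old mouse. It averaged -0.04 and 0.10 in replicates 1 and 3 of that group. No erythroid or cell division gene passed limma's test after adjustment in these comparisons. Of 9 monocyte genes 7 were higher at equal age, the median was 0.18, and F13a1, which encodes a coagulation factor chain, passed (0.82, SE 0.18, adjusted p = 0.0490; 2.26% of all probe sets passed). F13a1 did not pass without either old non-arthritic, either young arthritic, the second old arthritic or the first or second young non-arthritic mouse (passed in 3 of 10 omissions, differences 0.68 to 0.90, adjusted p up to 0.282). The 9 B cell, 9 T cell and 11 red pulp macrophage genes were above the array median on all 10 arrays and had medians of 0.01, -0.03 and 0.07 at equal age.

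**Figure D5:**
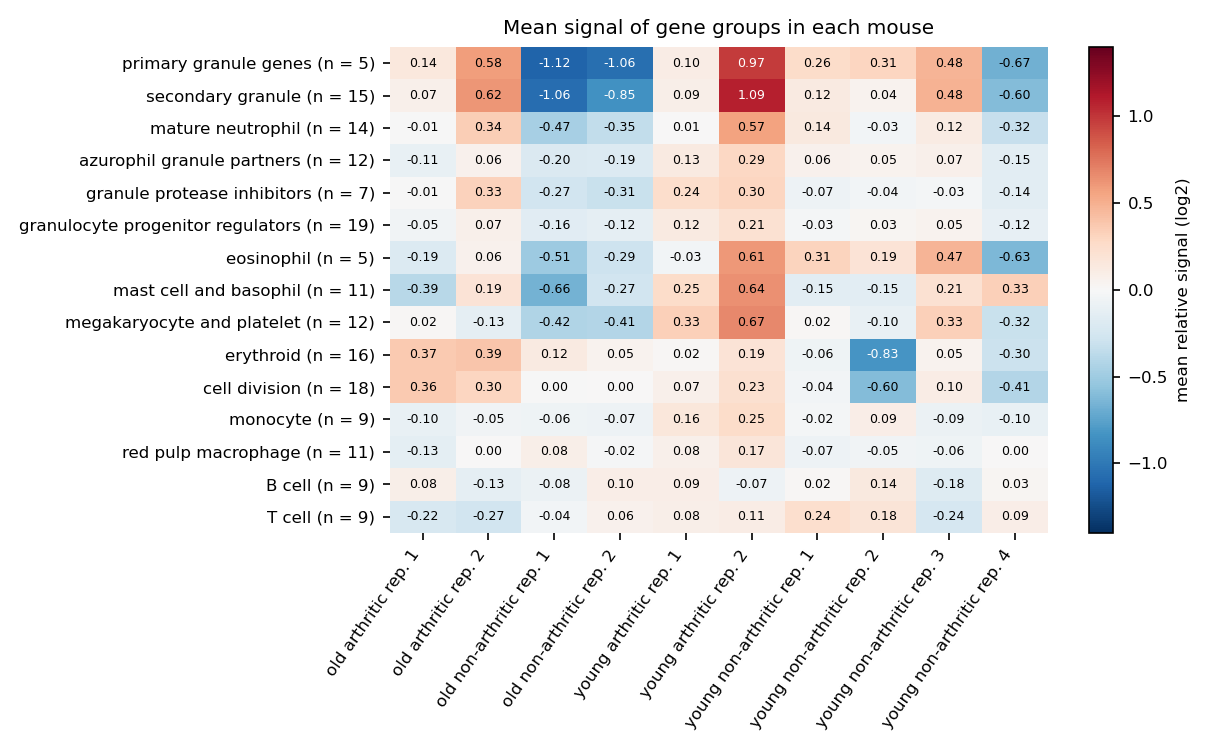
Mean log2 signal of gene groups in each of 10 mice, relative to each gene's mean over the mice (red higher, blue lower; n is the number of genes). The primary and secondary granule groups read -1.12 and -1.06 in old non-arthritic replicate 1 and are highest in young arthritic replicate 2 (0.97 and 1.09), while the erythroid group is lowest in young non-arthritic replicate 2 (-0.83).

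Genes beside the 5 on their chromosomes were compared with them as well, by order in RefSeq's GRCm38.p6. Prtn3 and Elane are direct neighbours on chromosome 10. Of 24 genes near the 5 with a probe set of their own, 15 passed the filter, and their mean r with the 5 genes ran from -0.80 (E130317F20Rik, near Elane) to 0.907 (Mcpt8, near Ctsg), with a median of 0.468 beside 0.286 for all named genes. Tspoap1 near Mpo (0.889) and R3hdm4 near Elane (0.859) also stood high, and Mcpt4 near Ctsg did not (0.208). E130317F20Rik, Tspoap1 and R3hdm4 were named after their values were seen. Neighbours of other genes were not compared, so these values are a description of the 5 loci.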

How the data were processed

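Each of the 10 spleens was read on an Affymetrix array of its own. The authors deposited 1 log2 signal for each probe set and array, made with RMA according to the submitters' notes; the software version was not given in the sources used here. RMA corrects the background, normalizes the arrays to a common distribution and summarizes probes, so a shift of all genes in 1 spleen is not visible. The paper gives no method for these arrays.

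Of 45101 rows, 64 control rows were left out. A probe set was kept when above its array's median in at least 2 arrays (23805 kept), and the brightest kept probe set was taken for a gene. Limma 3.58.1 in R 4.3.3 (lmFit, eBayes) was fitted to all kept probe sets, with a mean for each of 4 groups (6 residual degrees of freedom) or with age in months and arthritis (7), and Benjamini-Hochberg adjusted p-values under 0.05 were called. Intervals are 95%. The labels call the samples biological replicates, and the p-values rest on the spread among them. The number of arrays limits the precision. The fit was also run on simulated data with independent noise for each probe set. Genes that move together were not simulated, so that run does not show how the fit behaves on these spleens.

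The 5 genes and 18 other lists (242 genes, 204 matched to a probe set with 1 symbol, 188 kept) were chosen with earlier results of these data known. Named genes are the 5, up to 4 genes per list with the smallest p at equal age, and the 10 genes with the highest mean r with the 5; those named beyond this rule are marked. Promoter sequences and gene order are RefSeq's. Alternatives covered the filter, centring, normalization, array weights, an intensity trend, the groups in the fit, a replicate block and leaving out each array. Leaving out both old arthritic mice was chosen after seeing the data. Figures were drawn with matplotlib 3.10.9.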

Additional observations from a re-analysis of the deposited data

Results flagged for a closer look

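In the young non-arthritic group the 1-month-old mouse stood apart from its 3 group mates in 3 of 15 values checked, the 5 primary granule genes and the 10 genes most like them. Chance alone sets a mouse apart in about 1 of 20 such groups, and these genes move together, so the 3 are not independent. Ctsg read 10.41 in this mouse against a mean of 11.50 in the other 3, and its gap to the nearest mouse was 0.914 of the range of the group. Ms4a3 read 9.73 against 10.85 (0.874 of the range). Trem3, an activating receptor of neutrophils, read 9.03 against 10.03 (0.848 of the range). The shares for Mpo, Elane and Prtn3 were 0.625, 0.703 and 0.734 and did not pass.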

How the results depend on the processing

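Of the 7 comparisons, 4 kept 0 of 5 primary granule genes called under all alternatives run. Among the others, the count in old mice went from 0 to 3 without the filter. Among mice of 4 months or more it went to 5 without the filter and to 5 with array weights. At equal age it went to 2 without the filter and to 5 with array weights. Over the alternatives the calls among all probe sets reached 2280, 3997 and 5475 in these comparisons, so the counts are not read as a result about the 5 genes. Leaving out 1 mouse gave 0 to 5 called among mice of 4 months or more, 5 of them without the first old arthritic mouse, and 0 in each other comparison. The cause of these changes was not tested. Array weights also raised the calls over all probe sets, to 1454 and 4857. The direction reversed in 3 values, all in young mice without the 4-month-old arthritic mouse; leaving out 1 mouse gave -0.030 to 0.866 in Elane, -0.052 to 0.776 in Prtn3 and -0.21 to 1.01 in Ms4a3. The calls over all probe sets moved by far more than 1.5 times. At equal age they numbered 538, 0 to 859 when 1 mouse was left out and 29 to 5475 under the other alternatives. Among mice of 4 months or more they numbered 137, 2 to 1752 and 0 to 3997, in old mice 17, 0 to 1522 and 0 to 2280, in young mice 74, 0 to 73 and 0 to 3186, for the difference between the effects 0, 0 to 55 and 0, for old against young non-arthritic mice 0, 0 to 2 and 0, and per month of age 1, 0 to 1 and 0 to 2. Without the filter the share of calls that were higher at equal age was 58.7%, against 80.1% with it. Without both old arthritic mice the differences at equal age were 0.99 (Mpo) to 1.20 (Ctsg), with adjusted p-values in limma of 0.133 to 0.217.

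The labels call the mice biological replicates and name no pairs. Deviations from the group means of mice with the same number correlated at -0.525 to 0.356. In a group of 2 mice the deviations are mirror images, so these correlations cannot decide whether equal numbers are paired. The mean of the 5 genes was higher in replicate 2 than in replicate 1 in each of the 4 groups. With the replicate number as a block, 0 of 5 genes were called in each of the 7 comparisons. The calls over all probe sets at equal age went from 538 to 29. Replicates 3 and 4 occur only among young non-arthritic mice, so the block takes up these 2 mice and they add nothing to the comparisons. The fall in calls thus goes with fewer mice as well as with the block. With 2 mice in 3 of the 4 groups, differences of the size seen in young mice were within the spread between mice, and failing the threshold does not show equal levels.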
